A study of Mus musculus with 12 samples.

Results

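The 9 genes described here, Stat2, Irf7, Ifit1, Ifit2, Ifit3, Rsad2, Oasl2, Isg15 and Usp18, are genes whose transcription interferons induce. They were taken by gene symbol from the deposited expected counts of liver, gonadal white adipose tissue (WAT) and the gastrocnemius, a muscle of the calf, and make up 9 of the 22249 symbols listed in all 3 tissues. The mice were male C57BL/6J mice with floxed alleles of Nr3c1, the gene of the glucocorticoid receptor (GR). GRf/f mice carried no Cre, whereas GRmKO mice also carried a Cre transgene under the skeletal muscle actin promoter, which directs the deletion to skeletal muscle fibres, so that liver and fat kept the receptor. From 8 weeks of age they drank 1% ethanol in water (vehicle) or the same with 100 µg/mL of corticosterone (CORT), the main glucocorticoid of rodents, for 4 weeks. Each of the 12 combinations of tissue, genotype and drink was represented by a single library of RNA pooled from 3 mice, so the spread between mice was not measured and no p-value is given. The sources used here do not say if 1 set of mice supplied all 3 tissues.

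Type I interferons bind a receptor whose kinases activate STAT2, which joins IRF9 in a complex that binds the interferon-stimulated response element (ISRE) in the promoters of antiviral genes. Interferon gamma has a receptor of its own and acts on an overlapping set of genes. Low, steady expression of such genes is usual in healthy tissue, in resident macrophages and in parenchymal and endothelial cells, and glucocorticoids are widely used to dampen inflammatory gene expression.

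The libraries held 19394572 to 20940660 expected counts. Values are counts-per-million (CPM) of the library total, with 95% Wilson intervals. A floor was set at 3 counts, which was 0.143 to 0.155 CPM over the libraries, and values can lie under it. Changes are log2 ratios after adding 0.5 CPM to both sides, and a gene is said to have risen or fallen if that change was at least 2-fold. Intervals of ratios are 95% exact (Clopper-Pearson) intervals without that addition, and cover counting error only. Nr3c1 in gastrocnemius was 113 and 90.4 CPM in GRf/f mice (vehicle and CORT) and 46.4 and 35.5 CPM in GRmKO mice, and between 45.2 and 158 CPM in liver and gonadal WAT. Fkbp5, a direct GR target, went from 61.9 to 355 CPM with CORT in the gastrocnemius of GRf/f mice and from 30.0 to 20.8 CPM in that of GRmKO mice. Below, the 4 libraries of a tissue are given in the order GRf/f vehicle, GRf/f CORT, GRmKO vehicle and GRmKO CORT.

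All 9 genes were above 0 in all 12 libraries, so none was lost to the filter on genes above 0 in the 4 libraries of a tissue. Each deposited row carried the identifier of a single transcript, which was the same in the 3 tissues for all 9. On GRCm38, Ifit2 (chr19:34550694-34576419), Ifit3 (chr19:34583531-34588731) and Ifit1 (chr19:34640871-34650009) lay on the plus strand in 1 cluster of chromosome 19. The others were Stat2 (chr10:128270559-128292849), Irf7 (chr7:141262706-141266481), Rsad2 (chr12:26442746-26456452), Oasl2 (chr5:114896936-114912234), Isg15 (chr4:156199424-156200818) and Usp18 (chr6:121245906-121270917). The study summarised transcripts to genes and kept 1 entry per symbol, and it is not settled whether a value is a gene sum or that of the named transcript. The Oasl2 row bore the identifier of a transcript annotated for nonsense-mediated decay. Of the 31-base words of the Ifit3 transcript, 61.8% also occurred in Ifit3b, a near-identical neighbour, so reads of these genes may have been split between them, and 10.2% of those of Ifit1 occurred in other transcripts.

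The promoters are shown because the ISRE is the site through which interferon signalling reaches these genes, and because CORT acts through a receptor with a DNA motif of its own. RefSeq promoter windows of GRCm38.p6 were found for 8 of the 9 genes, the exception being Usp18. In the 250 bases before the start, the ISRE core GAAANNGAAA, searched on both strands, occurred in 5 of the 8 genes and in 2.97% of 32817 mouse promoters of that length. Of the 123 promoters of other interferon pathway genes, 34.1% held it. The 5 windows follow from 5′ to 3′ in the direction of transcription, with bases of the ISRE core in capitals. They are chr4:156200819-156201068 for Isg15 (minus strand), chr19:34640639-34640888 for Ifit1 (plus), chr19:34583279-34583528 for Ifit3 (plus), chr12:26456453-26456702 for Rsad2 (minus) and chr10:128270248-128270497 for Stat2 (plus).
Isg15 promoter: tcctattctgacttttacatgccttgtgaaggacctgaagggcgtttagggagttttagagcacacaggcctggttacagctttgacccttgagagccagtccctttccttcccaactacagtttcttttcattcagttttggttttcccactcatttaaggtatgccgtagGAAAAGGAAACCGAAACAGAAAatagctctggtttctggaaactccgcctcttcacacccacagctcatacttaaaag
Ifit1 promoter: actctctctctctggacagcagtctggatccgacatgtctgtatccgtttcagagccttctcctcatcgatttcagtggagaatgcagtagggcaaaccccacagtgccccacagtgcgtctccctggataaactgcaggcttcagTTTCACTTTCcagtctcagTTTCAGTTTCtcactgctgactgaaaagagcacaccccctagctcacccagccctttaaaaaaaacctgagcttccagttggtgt
Ifit3 promoter: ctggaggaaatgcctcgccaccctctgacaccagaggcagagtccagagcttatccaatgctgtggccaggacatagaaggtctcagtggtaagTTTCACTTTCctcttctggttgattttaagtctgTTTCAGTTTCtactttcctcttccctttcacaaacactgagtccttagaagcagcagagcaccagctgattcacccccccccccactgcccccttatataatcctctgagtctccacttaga
Rsad2 promoter: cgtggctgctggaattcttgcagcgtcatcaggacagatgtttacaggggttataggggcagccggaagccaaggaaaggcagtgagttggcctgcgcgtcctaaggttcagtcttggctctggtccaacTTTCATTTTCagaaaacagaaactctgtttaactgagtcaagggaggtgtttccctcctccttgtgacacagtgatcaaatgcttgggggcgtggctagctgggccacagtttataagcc
Stat2 promoter: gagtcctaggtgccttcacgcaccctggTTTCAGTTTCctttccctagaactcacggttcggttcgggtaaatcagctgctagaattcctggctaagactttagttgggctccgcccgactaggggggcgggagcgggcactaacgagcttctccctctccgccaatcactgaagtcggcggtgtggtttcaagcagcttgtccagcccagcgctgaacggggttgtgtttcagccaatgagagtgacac
Isg15 held 3 overlapping cores in a row, from 78 to 57 bases before the start. Ifit1 and Ifit3 each held 2 on the opposite strand, at 104 to 95 and 85 to 76 bases for Ifit1 and at 156 to 147 and 122 to 113 bases for Ifit3. Also on that strand, Rsad2 held 1 at 120 to 111 bases and Stat2 held 1 at 222 to 213 bases, farther from its start than in the others. The interferon gamma activated site TTCNNNGAA, whose letters read the same on both strands, was found in Ifit2 alone among the 8 genes and in 7.01% of all promoters. The GR half-site pair ACANNNTGT was found in none of the 9 windows of these genes, Ifit2 having 2, and in 5.84% of all promoters. A match is a description of letters and not of binding.

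The level of the 9 genes differed by tissue before any treatment. In the vehicle-treated GRf/f mice gonadal WAT had the highest level of 8 genes, and Usp18, the exception, was 4.16 CPM in liver and 3.51 CPM in gonadal WAT, with a ratio of gonadal WAT to liver of 0.844 (0.607 to 1.17) that did not separate them. Gastrocnemius was lowest for 7 genes. Ifit2, whose product binds viral RNA, was instead lowest in liver, at 1.62 CPM against 3.82 CPM in gastrocnemius and 10.8 CPM in gonadal WAT. Rsad2 was also lowest in liver, at 4.30 CPM against 5.68 CPM in gastrocnemius, a ratio of 0.757 (0.565 to 1.00) whose interval reached 1. The steepest ladder was that of Isg15, which was 15.2-fold (7.80 to 34.0) higher in gonadal WAT than in gastrocnemius. On the scale of CPM per kilobase of the named transcript, which allows genes to be compared as far as that transcript's length applies, Ifit3 (15.4), Irf7 (11.7), Oasl2 (9.95) and Isg15 (9.14) led in gonadal WAT of these mice and Irf7 (9.20) in liver. In gastrocnemius of the same mice Ifit3 (2.25), Irf7 (1.997) and Stat2 (1.99) led, and Isg15 (0.603) was lowest.

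**Figure D1:**
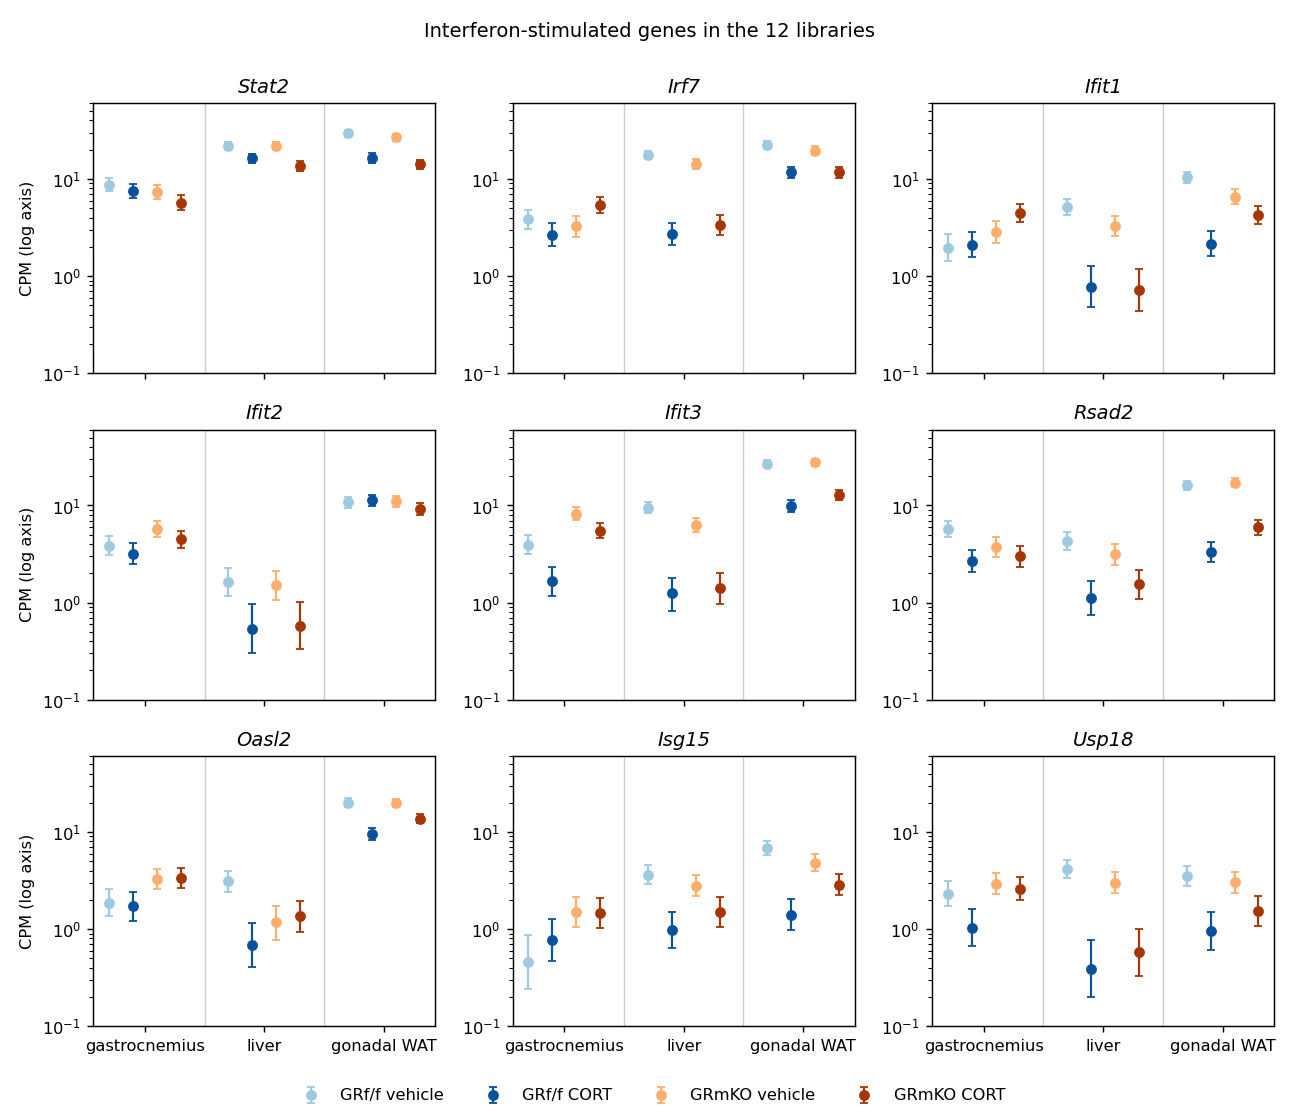
Each panel plots the level of 1 gene in CPM (log axis) in the 4 libraries of gastrocnemius, liver and gonadal WAT, with bars for the 95% Wilson counting interval. In liver the CORT points of Irf7 (2.72 and 3.39 CPM) lie well under the vehicle points (17.6 and 14.3 CPM), in gonadal WAT Ifit2 stays between 9.24 and 11.3 CPM, and in gastrocnemius Ifit3 is higher in both GRmKO libraries (8.24 and 5.52 CPM) than in both GRf/f libraries (3.92 and 1.66 CPM).

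The first question was how chronic CORT changed these genes in liver, where the receptor was intact in both genotypes. In GRf/f mice 8 of the 9 genes fell, against 5.72% of the 12485 genes tested in liver, and none rose, against 5.9%. Their median log2 change was -1.61, whereas that of all genes tested was 0.0048. In GRmKO mice 4 fell, against 2.82% of all genes, and none rose, against 2.8%, with a median log2 change of -0.90 and of 0.05 for all genes. For 8 of the 9 genes both CORT libraries were below both vehicle libraries, an order found in 21.7% of all genes. RNA of a whole tissue cannot tell fewer cells of a type from less RNA per cell.

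Irf7, the transcription factor that amplifies interferon production, was 17.6, 2.72, 14.3 and 3.39 CPM in the liver. Its CORT libraries held 15.5% (11.5 to 20.6%) of the vehicle level in GRf/f mice and 23.7% (17.9 to 30.7%) in GRmKO mice. Both CORT values lay far under both vehicle values, and the vehicle libraries themselves were 14.3 and 17.6 CPM. Stat2, the signalling subunit particular to type I and III interferons, moved less, with 22.0, 16.4, 22.0 and 13.5 CPM. At 74.6% (64.7 to 86.2%) and 61.3% (52.6 to 71.3%) of vehicle, Stat2 did not pass 2-fold in either genotype, though its counting intervals were below 100%.

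The 3 Ifit genes, which encode antiviral proteins, had different starting levels, and each had both CORT libraries below both vehicle libraries. Ifit1 was 5.16, 0.781, 3.30 and 0.721 CPM, and Ifit3 was 9.50, 1.24, 6.35 and 1.41 CPM. Both were at 13.1 to 15.1% of vehicle in GRf/f mice and at 21.9 to 22.3% in GRmKO mice. Ifit2, at 1.62, 0.537, 1.50 and 0.576 CPM, rested on 11 and 12 expected counts in the CORT libraries, and its percentages of vehicle, 33.0% (15.1 to 66.9%) and 38.3% (18.0 to 77.2%), were correspondingly wide. Ifit2 fell in GRf/f mice (log2 change -1.04) and was at -0.90 in GRmKO mice, just short of 2-fold, so this gene's 2 calls differ by less than its counting error.

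Rsad2 encodes viperin, a radical SAM enzyme that makes a chain-terminating nucleotide. It was 4.30, 1.12, 3.15 and 1.54 CPM, fell in GRf/f mice (log2 change -1.57) and was at 48.7% (31.1 to 76.0%) of vehicle in GRmKO mice (log2 change -0.84). Isg15, the ubiquitin-like protein that is joined to other proteins, followed the same course, with 3.63, 0.979, 2.79 and 1.50 CPM and log2 changes of -1.48 and -0.72. Usp18 removes ISG15 from proteins and restrains the interferon receptor. At 4.16, 0.391, 3.00 and 0.577 CPM it showed the lowest share of vehicle among the 9 genes in both genotypes, 9.40% (3.94 to 19.4%) in GRf/f mice and 19.2% (9.46 to 36.1%) in GRmKO mice, resting on 8 and 12 expected counts.

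Oasl2, an oligoadenylate synthetase-like antiviral protein, was the exception in liver, at 3.11, 0.683, 1.17 and 1.35 CPM. It fell in GRf/f mice (log2 change -1.61, with 22.0% of vehicle, 11.4 to 39.7%) but was at 115% (65.0 to 210%) of vehicle in GRmKO mice. The vehicle library of GRmKO mice was itself low, at 37.6% (22.4 to 60.5%) of that of GRf/f mice, and this was the only member past 2-fold between the genotypes in liver. If its value is that of the decay-prone transcript its row names, and not a gene sum, it need not follow the coding form.

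**Figure D2:**
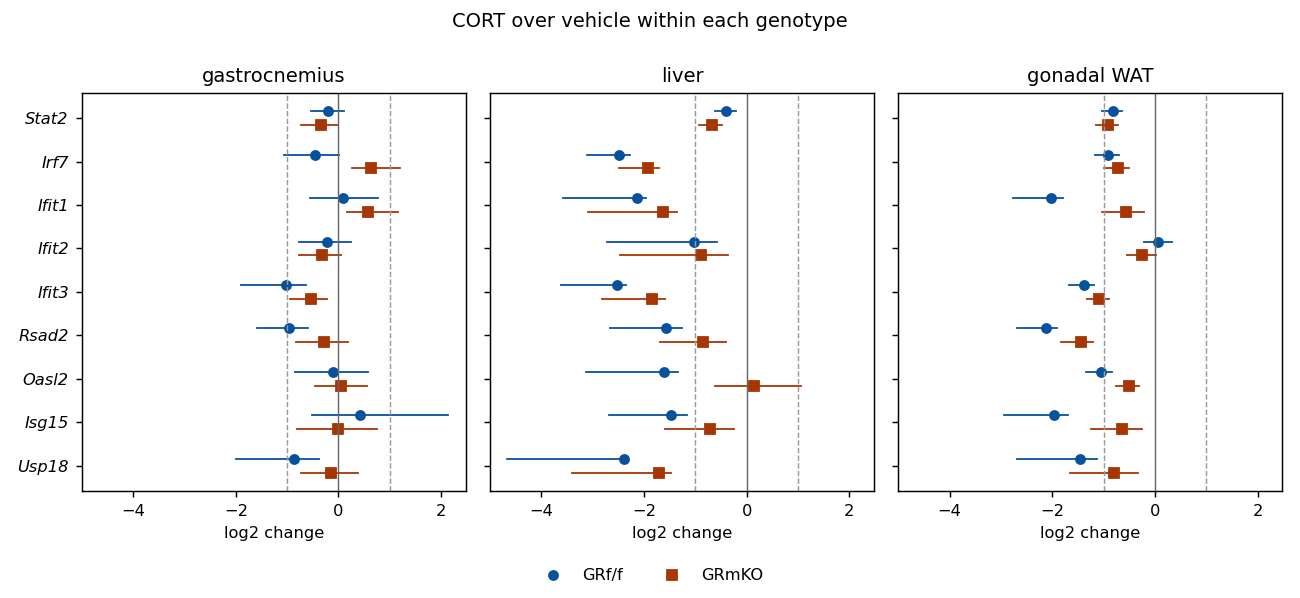
The log2 change with CORT of each gene (x axis) is plotted for GRf/f mice (circles) and GRmKO mice (squares) in each tissue, with lines for the 95% exact counting interval, which was computed without the 0.5 CPM, and dashed lines at 2-fold. In liver 8 circles and 4 squares lie beyond the lower dashed line, in gonadal WAT 6 and 2, and in gastrocnemius 1 and none.

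Gonadal WAT gave a second view of CORT with the receptor intact in the fat itself. In GRf/f mice 6 of the 9 genes fell, against 8.07% of 14218 genes tested, and none rose, against 5.49%, with a median log2 change of -1.39 and of -0.07 for all genes. In GRmKO mice 2 fell, Ifit3 and Rsad2, against 5.63% of all genes, and none rose, against 3.47%. The median there was -0.72, against -0.12 for all genes. Under TMM and median-of-ratios scaling 5 genes were past 2-fold in GRf/f mice, Oasl2 no longer being so. These scalings moved the median of all genes up by 0.12 in GRmKO mice, which left Rsad2 alone past 2-fold and moved the share of rises among all calls from 38.2% to 51.2% and 51.7%. For 8 genes, all but Ifit2, both CORT libraries were below both vehicle libraries, an order that 39.9% of all genes had in this tissue.

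Rsad2 was among the most affected in fat, at 16.2, 3.32, 17.2 and 5.99 CPM. The CORT libraries held 20.5% (15.5 to 26.8%) and 34.9% (28.1 to 43.1%) of the vehicle level, and these intervals did not overlap. Ifit1 was 10.4, 2.16, 6.56 and 4.26 CPM, so that it fell to 20.8% (14.6 to 29.0%) in GRf/f mice and stood at 64.9% (48.7 to 85.6%) in GRmKO mice. Isg15 had the same shape, with 6.91, 1.40, 4.81 and 2.88 CPM and 20.3% (13.0 to 30.7%) and 59.9% (42.3 to 83.6%) of vehicle. In Ifit1 and Isg15 the GRmKO libraries sat inside the range set by the GRf/f libraries, lower under vehicle and higher under CORT.

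Ifit3 was 26.9, 9.96, 28.0 and 12.9 CPM and fell in both genotypes, with log2 changes of -1.39 and -1.09. Oasl2, at 20.1, 9.45, 19.9 and 13.7 CPM, fell only just past 2-fold in GRf/f mice (log2 change -1.05) and was at 69.2% (59.3 to 81.1%) of vehicle in GRmKO mice. Usp18 was 3.51, 0.954, 3.04 and 1.53 CPM, with log2 changes of -1.46 and -0.80. The vehicle libraries of both genotypes were close for Ifit3, Oasl2 and Usp18, and the CORT library of GRmKO mice was the higher of the CORT pair for each.

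The signalling genes moved by similar amounts in both genotypes in fat and did not pass 2-fold. Irf7 was 22.4, 11.7, 19.5 and 11.7 CPM (log2 changes -0.91 and -0.72) and Stat2 was 29.4, 16.4, 27.0 and 14.1 CPM (log2 changes -0.82 and -0.91). Ifit2 differed from its cluster neighbours Ifit1 and Ifit3, being 10.8, 11.3, 11.1 and 9.24 CPM, at 104% (86.2 to 126%) and 83.4% (68.3 to 102%) of vehicle. It was the only gene of the 9 with a change above 0 in GRf/f mice in liver or fat, and both its intervals in fat included no change.

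In gastrocnemius the comparison with CORT asked what the hormone did with and without the receptor in the fibres. Of the 9 genes 1 fell in GRf/f mice, Ifit3, against 4.72% of 13543 genes tested, and none rose, against 3.26%, with a median log2 change of -0.23 and of -0.08 for all genes. In GRmKO mice none fell, against 5.02% of all genes, and none rose, against 1.51%, and the median was -0.15, against -0.10. With TMM or median-of-ratios scaling the median of all genes moved up by 0.14 or 0.13 in GRmKO mice, and the share of rises among all calls from 23.2% to 35.1% or 34.0%. In GRf/f mice median-of-ratios scaling moved that share from 40.8% to 51.2%, and under both scalings Ifit3 was no longer past 2-fold. Only Rsad2 had both CORT libraries below both vehicle libraries, against 23.6% of all genes.

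Ifit3 was 3.92, 1.66, 8.24 and 5.52 CPM, and fell to 42.4% (26.9 to 64.1%) in GRf/f mice. Rsad2, at 5.68, 2.68, 3.75 and 3.00 CPM, and Usp18, at 2.30, 1.03, 2.95 and 2.60 CPM, were close under the threshold in GRf/f mice, with log2 changes of -0.96 and -0.87, and at -0.28 and -0.15 in GRmKO mice. These 3 were the genes whose interval in GRf/f mice was below 100% of vehicle. Irf7 was 3.83, 2.67, 3.25 and 5.35 CPM and Ifit1 was 1.96, 2.11, 2.85 and 4.48 CPM. With CORT they stood at 165% (121 to 228%) and 157% (112 to 223%) of vehicle in GRmKO mice, and the CORT library of GRmKO mice was the highest of the 4 for both.

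The other members in muscle did not pass 2-fold with CORT in either genotype. Ifit2 was 3.82, 3.19, 5.71 and 4.48 CPM, Oasl2 was 1.88, 1.72, 3.27 and 3.38 CPM, and Stat2 was 8.74, 7.51, 7.36 and 5.71 CPM. With CORT in GRmKO mice Stat2 stood at 77.5% (60.1 to 99.2%) and Ifit2 at 78.5% (58.6 to 104%) of vehicle. Isg15 was the scarcest, at 0.456, 0.777, 1.48 and 1.47 CPM, or 9.0 expected counts in the vehicle-treated GRf/f library, and its interval with CORT in those mice ran from 69.9 to 442% of vehicle.

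The second question was whether loss of GR in muscle changed the response to CORT. The change in GRmKO mice minus that in GRf/f mice was above 0 for 6 of the 9 genes in muscle, for 8 in liver and for 7 in fat, with medians of 0.49, 0.68 and 0.54 on the log2 scale. Over all genes tested these medians were -0.05, 0.05 and -0.05, and the share of genes with a difference above 0 is not given here. In GRmKO liver 2.8% of all genes rose and 2.82% fell with CORT, against 5.9% and 5.72% in GRf/f mice. In fat the shares were 3.47% and 5.63%, against 5.49% and 8.07%, and in muscle 1.51% and 5.02%, against 3.26% and 4.72%. Smaller CORT changes in GRmKO mice were therefore not particular to the 9 genes in liver and fat. The 95% counting interval of the difference (Wald, without the 0.5 CPM) was above 0 for 3, 4 and 4 genes and below 0 for none. With 1 library per group this difference was not tested against the spread between pools. Under TMM and median-of-ratios scaling the counts with intervals above 0 were 4, 2 and 5 in these tissues, and 6, 8 and 7 genes were above 0. The liver count thus depended on the scaling of libraries, with Irf7 and Oasl2 left there. Under both scalings 1 gene in liver, Stat2, had an interval below 0.

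By gene the difference was largest for Oasl2 in liver, 1.76 on the log2 scale (interval 1.25 to 3.54), with the low vehicle library of GRmKO mice noted above. Ifit1 and Isg15 in gonadal WAT followed, at 1.46 (1.02 to 2.26) and 1.31 (0.81 to 2.31). In gastrocnemius Irf7 led, at 1.09 (0.56 to 1.91), ahead of Usp18 at 0.72 (0.05 to 1.90) and Rsad2 at 0.68 (0.08 to 1.44). Rsad2 was the only gene whose interval was above 0 in all 3 tissues, with 0.72 in liver (0.0006 to 1.80) and 0.68 in gonadal WAT (0.28 to 1.25), but in liver it only just cleared 0 and the lower limit was -0.06 under TMM and -0.05 under median-of-ratios scaling. Under these scalings no gene kept an interval above 0 in all 3 tissues. Stat2 lay on the other side in all 3 tissues, at -0.13, -0.27 and -0.09, with intervals that included 0. Its liver interval was below 0 under TMM (-0.64 to -0.05) and under median-of-ratios scaling (-0.63 to -0.04).

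Set side by side under vehicle, the genotypes differed by few members. In liver 1 gene, Oasl2, was at least 2-fold lower in GRmKO than in GRf/f mice, against 1.04% of all genes, and none was higher, against 1.26%. The median of the 9 genes was -0.39, against 0.03 for all genes, with intervals below 0 for Oasl2, Ifit1, Ifit3 and Irf7, and Stat2 was 22.0 CPM in both genotypes. In gonadal WAT none was past 2-fold, against 1.07% higher and 1.15% lower among all genes. Intervals there were below 0 for 3 genes, Ifit1 (63.3% of GRf/f), Isg15 (69.5%) and Irf7 (87.1%), and above 0 for none. In gastrocnemius Isg15 was 1.48 CPM against 0.456 CPM, and was the 1 gene higher, against 4.59% of all genes, with none lower, against 3.18%. Under TMM and median-of-ratios scaling Isg15 was not past 2-fold. Ifit3 came next, at 210% (159 to 277%) of GRf/f. Intervals in gastrocnemius were above 0 for 4 genes and below 0 for 1, Rsad2, at 66.1% (48.3 to 88.6%).

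**Figure D3:**
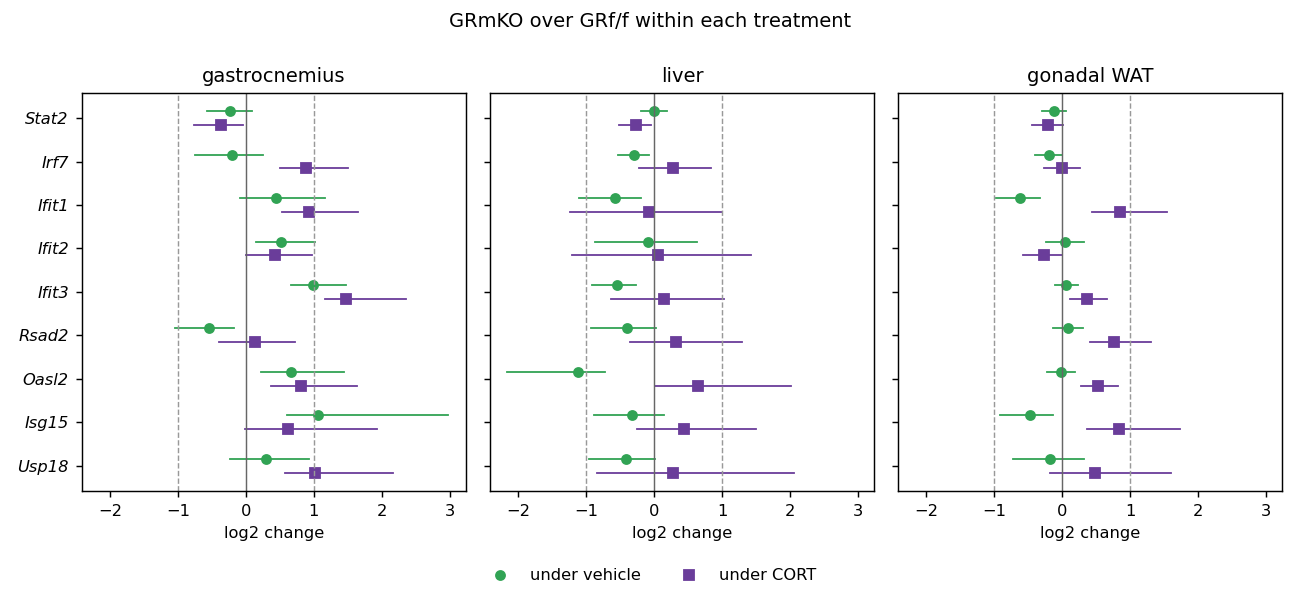
The log2 ratio of GRmKO to GRf/f mice (x axis) is plotted for each gene under vehicle (circles) and under CORT (squares), with lines for the 95% exact counting interval and dashed lines at 2-fold. In gastrocnemius 8 of 9 squares lie right of 0, Stat2 at -0.37 being the other, and Isg15 under vehicle and Ifit3 and Usp18 under CORT pass 2-fold.

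Under CORT 2 genes were at least 2-fold higher in GRmKO gastrocnemius, against 4.4% of all genes, and none was lower, against 5.31%. They were Ifit3, at 5.52 against 1.66 CPM (log2 ratio 1.48), and Usp18, at 2.60 against 1.03 CPM (1.02). The median of the 9 genes was 0.81, against 0.02 for all genes. Of the intervals 6 were above 0 and 1 was below, that of Stat2, at 76.0% (58.8 to 97.3%) of GRf/f. The share of all genes with such intervals is not given here. For 6 genes, Ifit1, Ifit2, Ifit3, Isg15, Usp18 and Oasl2, both GRmKO muscle libraries were above both GRf/f libraries, an order found in 26% of all genes. The count was 6 with either other scaling as well.

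No member had that order in liver, where 16.6% of all genes had it, or in gonadal WAT, where 7.43% did. In liver under CORT no gene was past 2-fold, against 2.44% higher and 2.27% lower among all genes. In gonadal WAT under CORT the figures were again none, against 1.43% and 1.19%. There 5 genes, Ifit1, Isg15, Rsad2, Oasl2 and Ifit3, had intervals above 0, and 1, Ifit2, at 81.9% (67.1 to 99.9%) of GRf/f, had an interval below 0. Ifit1 was at 197% (135 to 291%) and Isg15 at 205% (128 to 333%) of GRf/f, and the 0.5 CPM kept Isg15 below the threshold. A ratio of genotypes and a ratio of treatments that use the same library are not independent of each other.

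The wider interferon pathway was described with lists holding 132 genes besides the 9, of which 128 were listed. In liver 34 of the 94 above 0 in all 4 libraries fell with CORT in GRf/f mice (5.72% of all genes did) and 1 rose (5.9%), and in GRmKO mice 17 fell (2.82%) and none rose (2.8%). In gonadal WAT 38 of 108 fell (8.07% of all genes) and none rose (5.49%) in GRf/f mice, and 21 fell (5.63%) and 2 rose (3.47%) in GRmKO mice. In gastrocnemius 10 of 95 fell (4.72% of all genes) and none rose (3.26%) in GRf/f mice, and 13 fell (5.02%) and 2 rose (1.51%) in GRmKO mice. The medians were -0.74 and -0.42 in liver, -0.65 and -0.55 in gonadal WAT and -0.29 and -0.37 in gastrocnemius. These medians were lower than that of all genes in each comparison, and differences between tissues were not tested.

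Ligands were hardly represented. Of 11 type I and III interferon genes, none was above 0 in all 4 libraries of any tissue, and Ifnb1 and the listed Ifna genes were at 0 in all 12 libraries. Ifng, the gene of interferon gamma, was at 0 in gastrocnemius and liver and was 0.150 and 0.0506 CPM in the vehicle libraries of gonadal WAT, at or under the floor. Receptors were present, Ifnar1 at 10.7 to 43.4 CPM and Ifngr1 at 4.69 to 304 CPM over the 12 libraries. None of the 6 receptor genes rose or fell with CORT in gonadal WAT in either genotype, and 1 of 5 tested fell in the liver of GRf/f mice.

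**Figure D4:**
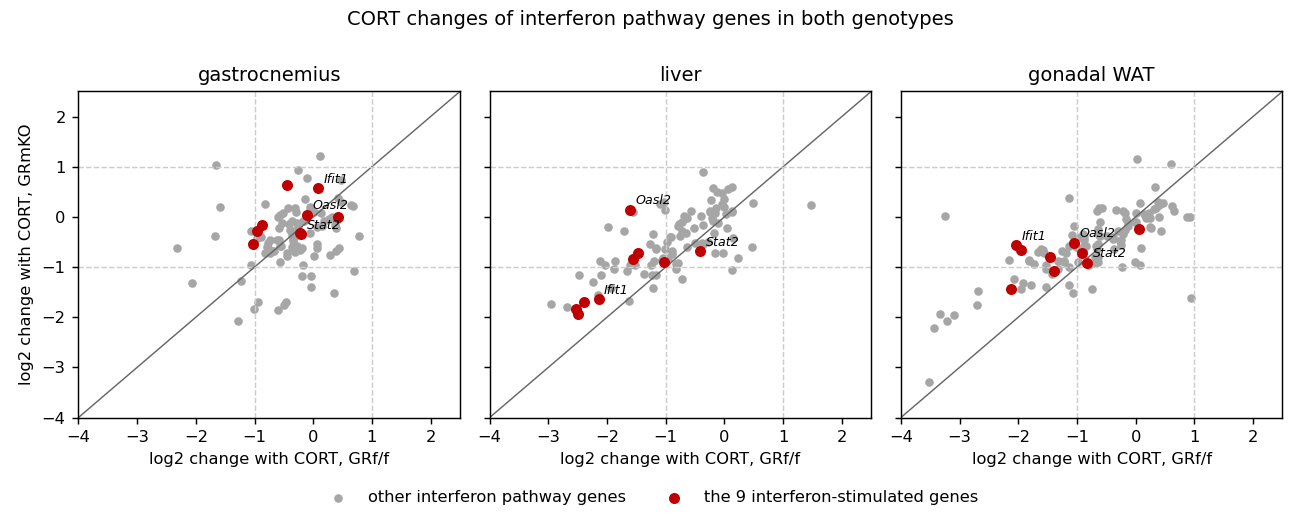
Each point is a gene of the interferon pathway, placed by its log2 change with CORT in GRf/f mice (x axis) and in GRmKO mice (y axis), with the 9 interferon-stimulated genes in red and the line of equal change drawn. In liver and gonadal WAT most red points lie at the lower left and above the line, such as Ifit1 in gonadal WAT at -2.03 and -0.57, whereas in gastrocnemius they lie around the origin.

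The genes that respond mainly to interferon gamma include the guanylate-binding proteins and the chemokine gene Cxcl9. In gonadal WAT 15 of 16 tested fell with CORT in GRf/f mice, against 8.07% of all genes, and 11 in GRmKO mice, against 5.63%, with medians of -1.94 and -1.38. In liver 10 and 8 of 16 fell (5.72% and 2.82% of all genes), with medians of -1.29 and -1.01, and in gastrocnemius 5 and 4 of 13 (4.72% and 5.02%). Cxcl9, which draws activated T cells, was 66.3, 5.68, 58.4 and 12.2 CPM in gonadal WAT and 9.04, 0.732, 5.53 and 1.30 CPM in liver. Gbp2b was 3.01, 0.0488, 1.89 and 0.192 CPM in liver, its GRf/f CORT value lying under the floor. Of 14 promoters of this list in the RefSeq table, 78.6% held the ISRE core.

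Of the other antiviral effectors 18 of 50 fell in liver (5.72% of all genes) and 20 of 59 in gonadal WAT (8.07%) in GRf/f mice, and 6 (2.82%) and 8 (5.63%) did in GRmKO mice. Ifi27l2a was by far the most abundant of those named, at 863, 75.0, 993 and 101 CPM in gonadal WAT. Its log2 changes of -3.52 and -3.29 were nearly alike in the 2 genotypes. Slfn8 in the gonadal WAT of GRmKO mice, from 1.41 to 3.76 CPM, and Tor3a in the liver of GRf/f mice, from 1.54 to 5.20 CPM, rose. In gastrocnemius Tgtp1 went from 4.20 to 0.439 CPM and Iigp1 from 9.03 to 1.79 CPM with CORT in GRf/f mice. Tgtp2, from 5.71 to 0.968 CPM, and Cxcl9, from 2.55 to 0.344 CPM, fell in GRmKO mice, and these 4 genes all belong to the interferon gamma-leaning list.

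Among regulators, Socs3, which restrains cytokine receptors, was 64.9 CPM in the CORT-treated GRmKO gastrocnemius against 12.8 CPM in that of GRf/f mice. Irgm2 was 25.7 against 5.49 CPM. Socs3 also rose with CORT in the gonadal WAT of GRmKO mice, from 11.0 to 23.5 CPM. Gbp6 was lower in GRmKO muscle under both treatments, at 4.61 against 15.6 CPM with vehicle and 5.79 against 21.9 CPM with CORT, and Oas2 was 0.787 against 2.98 CPM with CORT. Under vehicle Tlr7, a sensor of RNA, was 3.59 against 0.905 CPM and Ifitm2, a block to viral entry, 107 against 42.6 CPM.

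Some pathway genes had values that differed sharply between single libraries. Jak2 was 57.4, 17.8, 14.2 and 29.6 CPM in gastrocnemius and 21.5, 41.7, 33.9 and 10.7 CPM in gonadal WAT, and was listed at 0 in the vehicle-treated GRf/f liver but at 10.7 to 11.3 CPM in the other liver libraries. Irf9, the partner of Stat2, was 19.4, 1.60, 7.86 and 7.99 CPM in gonadal WAT, with CORT lower in GRf/f mice and hardly different in GRmKO mice, whereas in liver it was 10.5, 4.20, 9.34 and 3.89 CPM. Rtp4 (7.94 and 4.98 CPM with vehicle), Uba7 (3.97 and 3.08), Gbp3 (3.40 and 2.41) and Tlr3 (3.22 and 3.25) were listed at 0 in both CORT libraries of liver and so were not among the genes tested. Adar was 24.2, 8.19, 22.2 and 0 CPM in gonadal WAT. Whether these values are those of 1 transcript or sums over a gene is not settled by the sources used here, and the part of read assignment among transcripts was not tested.

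Between genotypes the remaining named differences were scattered. In liver under vehicle Ifngr1 was 4.69 CPM in GRmKO against 12.1 CPM in GRf/f mice. Under CORT Gbp5 was lower (0.797 against 2.63 CPM), and Ifi211 (1.15 against 0.0520 CPM, the latter under the floor) and Parp10 (6.08 against 2.30 CPM) were higher. In gonadal WAT Ddx60 (1.06 against 3.37 CPM) and Irf9 were lower under vehicle. Under CORT Jak2 and Cgas (0.665 against 2.02 CPM) were lower and Irf9 and Ifi203 (10.4 against 3.38 CPM) were higher.

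Markers of cell types that can express interferon-stimulated genes also differed with CORT, the macrophage sum in opposite directions in liver and fat and the endothelial, T and NK cell and B cell sums downward in both. In liver the summed level of 11 macrophage markers was 291, 101.5, 240 and 153 CPM, and 8 of them fell in GRf/f mice and 2 in GRmKO mice. Clec4f, which marks Kupffer cells, the macrophages of liver, was 49.5, 17.1, 41.2 and 25.9 CPM, and Csf1r was 29.4, 4.92, 17.1 and 6.80 CPM. The endothelial sum was 68.1, 41.5, 67.8 and 57.7 CPM and the sum for B cells 2.72, 0.0977, 2.28 and 0.144 CPM. The macrophage, endothelial and B cell sums had the same order of the 4 libraries, with the smaller fall in GRmKO mice. That order was also seen in 6 members, Irf7, Ifit2, Ifit3, Rsad2, Isg15 and Usp18, and its share among all genes is not given here. The T and NK cell sum, at 2.68, 1.12, 3.05 and 0.336 CPM, did not have it. The part of these cells in the members' fall was not tested.

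In gonadal WAT the macrophage sum instead was 1168, 2667, 1436 and 2596 CPM, with 6 markers of 11 risen and none fallen in GRf/f mice, Cd68 from 50.9 to 171 CPM and Lyz2 from 436 to 1137 CPM among them. In GRmKO mice 1 of the 11 rose and none fell. Endothelial markers were lower, with a sum of 623, 231, 577 and 311 CPM and 4 of 5 fallen in GRf/f mice, and so were those of T and NK cells (14.7, 1.56, 12.5 and 2.98 CPM), B cells (10.5, 1.46, 15.9 and 3.81 CPM) and conventional dendritic cells (43.2, 23.0, 43.0 and 28.2 CPM). All 8 T and NK cell markers and all 4 B cell markers fell in GRf/f mice. In the endothelial, T and NK and dendritic sums, as in Ifit1, Isg15 and Rsad2, the CORT library of GRmKO mice lay above that of GRf/f mice. Their part in the change of the 9 genes was not tested.

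**Figure D5:**
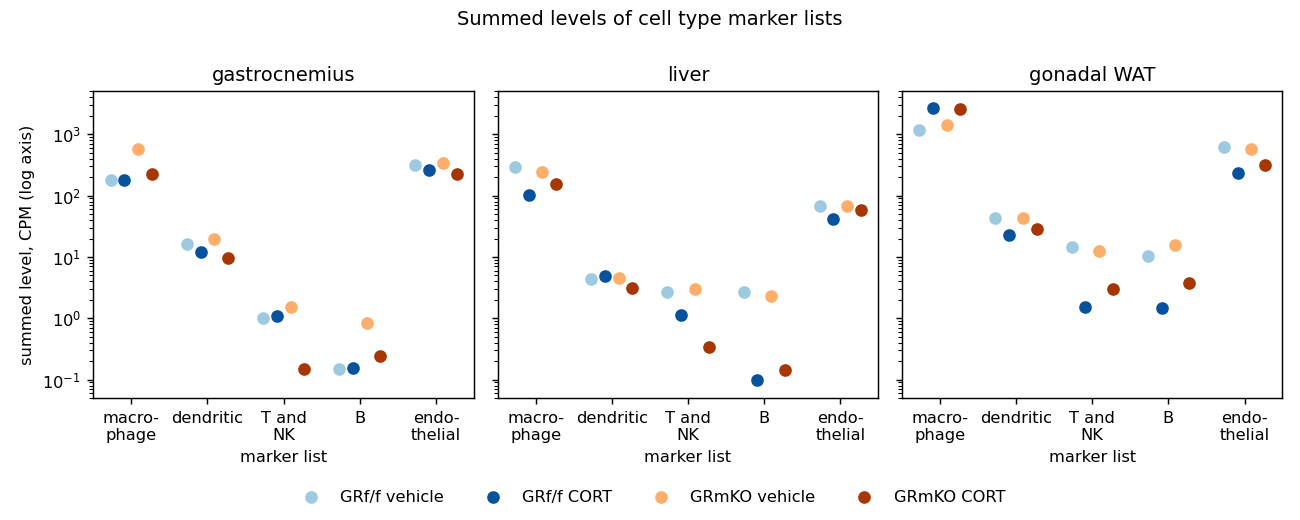
The summed level of 5 marker lists in CPM (log axis) is plotted for the 4 libraries of each tissue. The macrophage sum is lower with CORT in liver (291 to 101.5 CPM in GRf/f mice) and higher in gonadal WAT (1168 to 2667 CPM), and it is highest in the vehicle-treated GRmKO library in gastrocnemius (573 CPM).

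In gastrocnemius the macrophage sum was 179, 180.3, 573 and 226 CPM, so it was 3.20-fold higher in vehicle-treated GRmKO than GRf/f muscle, with 8 of 11 markers past 2-fold and Lyz2 at 264 against 66.2 CPM. With CORT 9 of the 11 fell in GRmKO mice, while no member did. Under CORT, where the members' genotype ratio was larger, the macrophage sum differed by 1.25-fold. The sum of 5 fibroblast markers was 877, 271, 1230 and 362.5 CPM, with 3 of 5 fallen with CORT in each genotype. The part of macrophages and fibroblasts in the members' values in muscle was not tested. Liver transcripts were also more abundant in GRmKO muscle, where the sum of 6 hepatocyte markers was 81.3 and 267 CPM, against 5.97 and 8.72 CPM in GRf/f mice. That sum was at most 0.191% of the same sum in liver. At that share the liver level of the members would amount to at most 0.0258 CPM, for Stat2, and the part of liver RNA in their values was not tested. The sum of 6 adipocyte markers in gastrocnemius was 102, 316, 90.4 and 208.5 CPM, and the part of fat was not tested either. T and NK and B cell sums in muscle were at or under 1.55 CPM in every library. The plasmacytoid dendritic cell list was dominated there by a muscle transcript, Cox6a2, and was not read as that cell type.

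Likeness to the 9 genes was measured across the 12 libraries by the Pearson correlation of each gene's log2 level, centred within its tissue, with the mean of the members. These 12 points share 3 tissues and the CORT contrast, and the coefficient is a description. Among 8828 genes the closest were Usp18 (r = 0.987), Ifit3 (0.963), Plaat3 (0.958), Tspyl1 (0.958), Ifit1 (0.956), Cdh13 (0.954) and Ifit3b (0.952), then Cyp2u1 (0.943), Tshz2 (0.943) and Tcp11l2 (0.939). Of these 10, 3 were members and 1, Ifit3b, was another gene of the pathway lists. The mean holds each member's own level, so the members' ranks are in part fixed by construction, and Ifit3b shares sequence with Ifit3. Irf7 (rank 18) and Isg15 (rank 36) followed, and Ifit2 (rank 213) and Stat2 (rank 600) were the members least like the mean. Stat2 and Ifit2 were also the members with the smallest CORT changes in liver and in gonadal WAT of GRf/f mice, respectively.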

How the data were processed

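The authors sequenced pooled RNA of 3 mice per group and deposited 1 table of expected counts per library. Per the study's methods and the labels' processing notes, transcripts were quantified with Salmon 1.2.1 and summarised with tximport on mm10. Each deposited row carries a symbol and 1 transcript identifier, whether it holds a gene sum is not settled, and values need not be whole. Counts were divided by the library total (19394572 to 20940660) to give CPM. Log2 ratios were taken after adding 0.5 CPM, and 2-fold was the threshold, over the genes whose 4 values in that tissue were all above 0. With 1 library per group a comparison within a genotype or treatment has no replicates, no model over libraries was fitted, and the NOISeq calls of the study were not repeated. Intervals (Wilson, Clopper-Pearson, Wald; 95%) cover counting error only, and reads are not independent molecules. Alternatives were TMM and median-of-ratios factors (edgeR 4.0.16, R 4.3.3), pseudocounts of 0.1 and 1 CPM, a mean of at least 1 CPM, and no filter. Scripts used Python 3.11.15 with scipy 1.17.1 and were tested on simulated data. The 9 genes and the gene lists were chosen with earlier results of these data known. Pathway genes with a mean of at least 1 CPM were named by size, the 2 largest past 2-fold in each direction and comparison, with the 10 genes most like the members. Other genes named, such as those listed at 0, receptors and markers, were chosen after their values were seen. Positions came from GENCODE M21 and promoters from RefSeq, both GRCm38.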

Additional observations from a re-analysis of the deposited data

Results flagged for a closer look

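The change with CORT in GRmKO mice went in opposite directions in muscle and liver for Ifit1 and Irf7. For Ifit1 the log2 change was 0.57 in gastrocnemius and -1.64 in liver, a difference of -2.21. For Irf7 it was 0.64 in gastrocnemius and -1.93 in liver, a difference of -2.57. Each tissue had 1 library per group, and the difference was not tested.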

How the results depend on the processing

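No paired analysis was possible because each group had 1 library and there were no replicates to pair or leave out. The number of members past 2-fold with CORT in the gastrocnemius of GRf/f mice went from 1 to 0 under TMM, 0 under median-of-ratios factors, 3 with a pseudocount of 0.1 CPM and 0 with 1 CPM. For GRmKO over GRf/f under vehicle in gastrocnemius it went from 1 to 0, 0, 2 and 0 under the same alternatives, and under CORT from 2 to 1 with a pseudocount of 1 CPM and 3 with 0.1 CPM. In liver under vehicle it went from 1 to 0 with a pseudocount of 1 CPM, and with CORT in the gonadal WAT of GRmKO mice from 2 to 1 under either scaling. The median of the members with CORT in the liver of GRf/f mice was -1.32 with a pseudocount of 1 CPM, which shrinks changes of low values. Without a filter, more genes entered and the number of all genes past 2-fold was 1401 and 1621 in gastrocnemius (CORT in GRmKO mice, genotype under vehicle), 1143, 657 and 982 in liver (CORT in GRmKO mice, genotype under vehicle and CORT) and 708 and 767 in gonadal WAT (genotype under vehicle and CORT). With a mean of at least 1 CPM it was 461 for the genotype under vehicle in liver. Chosen after seeing the data, the scaling of the genotype difference took the liver genes with an interval above 0 from 4 to 2 under TMM and under median-of-ratios factors. Stat2 in liver had an interval below 0 under both. Of the 108 single changes of members, 6 moved beyond their counting interval with a pseudocount of 1 CPM and none under the other pseudocount or either scaling, and no change past 2-fold reversed its sign. Apart from the pseudocount and the filter, the cause was not tested. Precision was limited by counts as low as 8.0 and by the lack of replicate pools.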
